A study of Homo sapiens with 4 samples.

Results

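Integrin chains and the adaptors and kinases that gather at their cytoplasmic tails were followed in the human malignant glioma line U87MG, which is long established in culture. The group was chosen by name and held 33 genes, of which 31 had a probe set in the deposited array table, out of 19555 genes in all. The 31 comprised 11 α chains, 7 β chains and 13 adaptors or kinases. ITGA1 (α1 chain) and TLN1 (talin 1) matched no row and were not analysed here, and ILK stood in the table under the name ILK-2.

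RNA from 4 cultures was hybridised to Affymetrix Human Gene ST arrays, which read whole transcripts. The wild-type group (U87_APN_wt_EGFP, n = 2) was a U87MG clone with a construct of wild-type membrane alanyl-aminopeptidase (CD13/APN, the product of ANPEP). The L243P group (U87_APN_L243P_EGFP, n = 2) was a clone with the L243P form, given as inactive in the labels. Both constructs have EGFP in their name, and both clones grew on the U87MG background. Growth was described as comparable, and the replicates as separate experiments. The sample descriptions name a single clone per genotype, so clone and genotype cannot be told apart, and the p-values reflect how far repeat cultures of each clone varied. In RNA from whole cultures, fewer cells that express a gene and less RNA per cell cannot be told apart either.

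Integrins are heterodimers of an α and a β chain that bind matrix proteins outside the cell. Their β tails recruit talin and kindlin, which link to vinculin and actin, while ILK, PINCH and parvin form a complex beside them. Paxillin, focal adhesion kinase, SRC and p130Cas carry the signal from these adhesions, and in glioma integrins are known for their part in attachment and invasion.

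ITGA4, which encodes the α4 chain, fell in the L243P clone, while ITGB1, the β1 chain it pairs with, did not pass the test. FN1, which encodes their ligand fibronectin, rose at the level of the whole gene. The bases upstream of these 3 genes are shown because they encode both chains and a ligand of a single receptor. They come from RefSeq (GRCh38.p14), are written in the direction of the gene, and end just before its annotated start. ITGA4 lies on the plus strand (chr2:181457136-181457385), ITGB1 on the minus strand (chr10:32958231-32958480) and FN1 on the minus strand (chr2:215436069-215436318). Capitals mark GC boxes, the letters GGGCGG or CCGCCC on the strand printed, and boxes that overlap are each counted.
ITGA4: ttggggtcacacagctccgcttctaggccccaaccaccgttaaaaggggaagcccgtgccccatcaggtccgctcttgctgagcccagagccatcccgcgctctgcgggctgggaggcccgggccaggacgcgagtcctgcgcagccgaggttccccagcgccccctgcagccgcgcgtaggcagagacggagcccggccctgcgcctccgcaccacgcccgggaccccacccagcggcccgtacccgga
ITGB1: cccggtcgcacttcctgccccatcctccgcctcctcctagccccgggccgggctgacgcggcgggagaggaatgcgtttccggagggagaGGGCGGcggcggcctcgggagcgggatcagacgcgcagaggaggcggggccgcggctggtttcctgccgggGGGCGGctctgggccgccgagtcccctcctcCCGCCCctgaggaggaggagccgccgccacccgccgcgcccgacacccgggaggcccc
FN1: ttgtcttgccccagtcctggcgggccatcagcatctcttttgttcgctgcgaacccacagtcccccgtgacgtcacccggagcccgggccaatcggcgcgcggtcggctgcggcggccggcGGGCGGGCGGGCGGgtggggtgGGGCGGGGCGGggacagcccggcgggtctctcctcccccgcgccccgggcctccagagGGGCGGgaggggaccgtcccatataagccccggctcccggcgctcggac
The window of ITGA4 held 0 GC boxes, that of ITGB1 3 and that of FN1 6, while all were rich in G and C (72.8%, 78.4% and 76.4%). Among 35116 RefSeq promoter windows of 250 bases, 42.6% held the motif, and among the 23 integrin and adaptor genes with a window, 14 did. This describes the letters only. The arrays did not measure binding there.

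Values are the authors' normalized intensities, on a linear scale. Each change is the log2 ratio of the L243P clone to the wild-type clone, and its standard error (SE) comes from a limma fit over 27533 rows, and a gene counted as called at a Benjamini-Hochberg adjusted p under 0.05. In this comparison 0.967% of all genes were called, 0.43% higher and 0.537% lower. Median centring called 505 genes (282 higher and 223 lower) in place of 189 (84 and 105), so the direction of the majority depended on the scaling. Array medians lay between 46 and 50. ANPEP was bright in both clones, at 8447 and 9103 in the wild-type clone against 6439 and 7122 in the L243P clone (log2 change -0.37, SE 0.085, adjusted p = 0.16). Its probe set does not separate the forms, so it does not check the genotype. Of astrocyte markers, VIM lay between 6134 and 8297, whereas S100B (17 to 20), AQP4 (12 to 20) and SLC1A2 (16 to 23) were dim on every array, and no row matched GFAP. Of the 7 measured glial markers, 0 were called by limma, and 2 had an unadjusted p under 0.05 (against 13.5% of all genes). These were NES (62 and 74 in the wild-type clone against 104 and 112 in the L243P clone, adjusted p = 0.12) and SLC1A3 (87 and 86 against 122 and 133, adjusted p = 0.12), both higher with L243P without overlap. Their part in the results below was not tested.

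**Figure D1:**
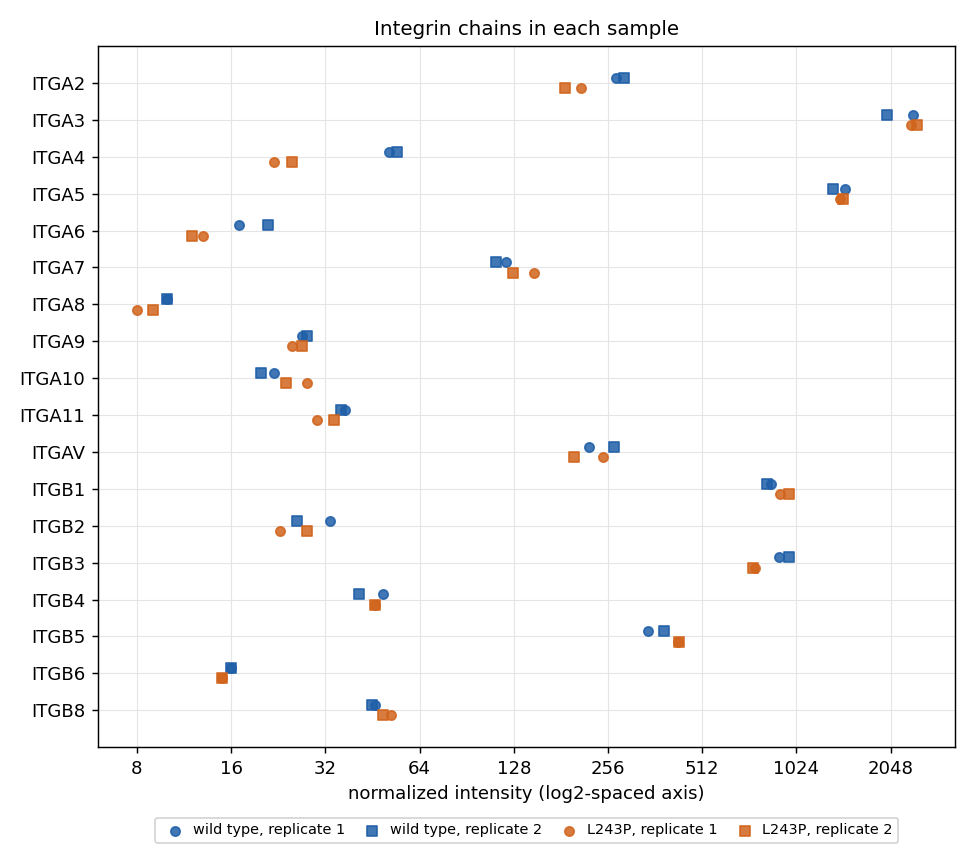
Normalized intensity (x axis, spaced by log2) of the 18 measured integrin chains in each of the 4 samples, with wild type in blue and L243P in orange. For ITGA4 the L243P samples sit at 22 and 25 and the wild-type samples at 51 and 54, while the samples of ITGA5 and ITGAV interleave.

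Among the α chains, 1 of 11 was called (against 0.967% of all genes), and it was lower. ITGA4 forms α4β1, a receptor for VCAM1 and for an alternatively spliced segment of fibronectin. It was at 51 and 54 in the wild-type replicates and at 22 and 25 in the L243P replicates. Both L243P samples were below both wild-type samples. ITGA4 thus fell from 52.5 ± 2.12 to 23.5 ± 2.12 (SD, n = 2), or 2.24-fold, and its log2 change of -1.16 had an SE of 0.14 (adjusted p = 0.038). The L243P values lay below the median of their arrays, and no detection calls were used, so the fold compares measured intensities. With a pseudocount of 16 the log2 change was -0.79, or 1.735-fold lower in place of 2.24-fold, and the call stayed. Limma's default prior ended this call (adjusted p = 0.26), as did the replicate number as a block (adjusted p = 0.65). Every fit on 3 arrays also ended it, with a log2 change that stayed between -1.25 and -1.07. These settings called 0 genes of the whole table, so they also ended the call of every gene described as risen or fallen below.

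The laminin receptor chain ITGA6, which pairs with β1 or β4, was at 17 and 21 in the wild-type clone against 13 and 12 in the L243P clone. The groups did not overlap, but the change of -0.60 (SE 0.16) was not called (adjusted p = 0.21), and all 4 values lay under the median of their arrays. The L243P values also lay under the lower quartile of their arrays (15 and 16), so the size of this change is not firm. ITGA2, the α chain of a collagen receptor, was at 279.5 ± 10.6 and 198.0 ± 17.0, also without overlap and without a call (log2 change -0.50, SE 0.10, adjusted p = 0.12). The remaining collagen-binding chains ITGA10 and ITGA11 had log2 changes of 0.31 and -0.19 (adjusted p = 0.51 and 0.70).

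ITGA5 makes the classical fibronectin receptor α5β1. It was at 1460 and 1335 in the wild-type clone against 1412 and 1444 in the L243P clone. The samples of the clones interleaved, and the log2 change of 0.03 had a 95% interval from -0.16 to 0.22. ITGAV, which joins several β chains to bind RGD-containing ligands, was at 222 and 267 in the wild-type clone against 247 and 200 in the L243P clone, again with overlap (log2 change -0.13, interval from -0.49 to 0.22). The sign of both small changes turned when single arrays were left out. ITGA3 and ITGA7, further laminin receptor chains, had log2 changes of 0.15 and 0.24, and the dim ITGA8 and ITGA9 of -0.24 and -0.08, with adjusted p from 0.55 to 0.89 over these 4.

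None of the 7 β chains was called by limma, with 2 at an unadjusted p under 0.05 (against 13.5% of all genes). ITGB1, the shared partner of most α chains, was at 850 and 826 in the wild-type clone against 910 and 966 in the L243P clone. Both L243P samples were higher, but the log2 change was 0.16 (SE 0.075, interval from -0.02 to 0.35, adjusted p = 0.49). The αv partners ITGB3 and ITGB5 lay on opposite sides. ITGB3 was at 935.0 ± 50.9 in the wild-type clone against 749.5 ± 7.78 in the L243P clone (log2 change -0.32, SE 0.077, adjusted p = 0.18). ITGB5 was at 365.0 ± 29.7 and 429.0 ± 2.83 (log2 change 0.24, SE 0.091, adjusted p = 0.40). Neither group pair overlapped, these were the 2 β chains with an unadjusted p under 0.05, and the difference between the genes was not tested. The αv partners ITGB6 and ITGB8 had log2 changes of -0.09 and 0.15, and the hemidesmosome chain ITGB4 of 0.04. ITGB6 was dim, at 15 or 16 on every array.

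ITGB2, the β chain of leukocyte integrins, was at 33 and 26 in the wild-type clone against 23 and 28 in the L243P clone, with overlap (log2 change -0.21, SE 0.18, adjusted p = 0.77). Of 7 integrin chains outside the group, ITGAX, a leukocyte α chain that pairs with ITGB2, was the 1 called (against 0.967% of all genes). It was at 108 and 99 in the wild-type clone against 240 and 220 in the L243P clone, so it rose 2.22-fold (log2 change 1.15, SE 0.11, adjusted p = 0.019). Its neighbour ITGAD was at 46.5 ± 4.95 and 70.5 ± 13.4 (adjusted p = 0.27), and ITGAM, on the other side, at 28 ± 0 and 26 ± 2.83 (log2 change -0.11, adjusted p = 0.85). The leukocyte marker PTPRC was at 8 or 9 on every array. The summed intensity of 7 leukocyte and platelet markers was 2107 and 2047 in the wild-type clone against 2566 and 2744 in the L243P clone, carried by CD68. Of the 7, 0 were called by limma, with 1 (CD68) at an unadjusted p under 0.05 (against 13.5% of all genes). The part of these markers in the ITGAX result was not tested.

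**Figure D2:**
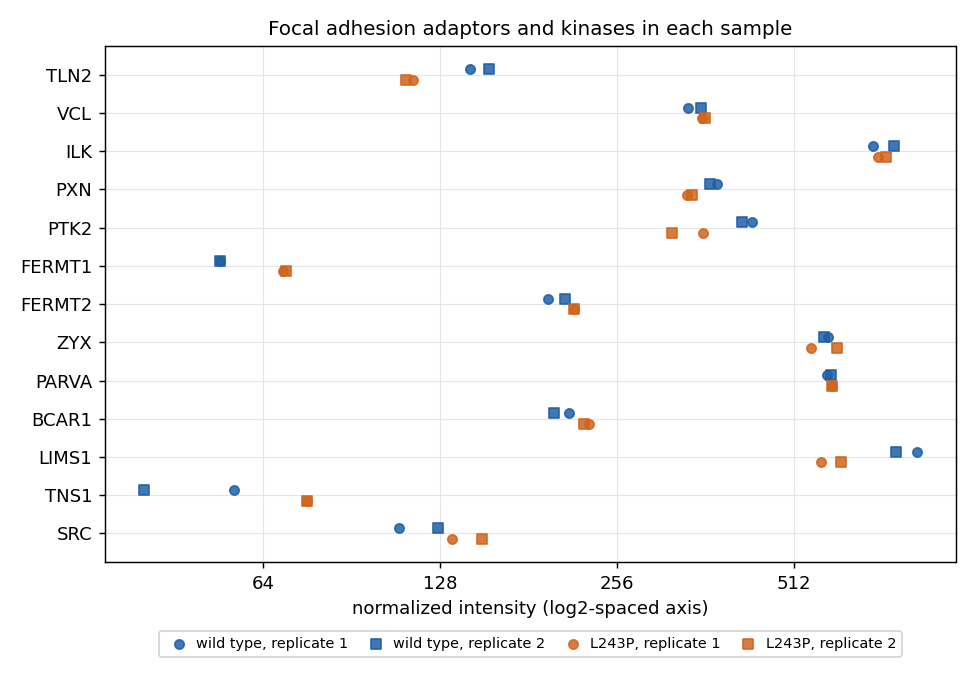
Normalized intensity (x axis, spaced by log2) of the 13 measured adaptors and kinases in each sample, with wild type in blue and L243P in orange. LIMS1, PTK2 and TLN2 lie lower in both L243P samples, TNS1 and FERMT1 higher, and ILK and ZYX interleave.

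None of the 13 adaptors and kinases was called by limma, with 5 at an unadjusted p under 0.05 (against 13.5% of all genes). TNS1 encodes tensin 1, which ties integrin tails to actin, and it had the widest change among them. It was at 57 and 40 in the wild-type clone against 76 in both L243P samples. The groups did not overlap, and the log2 change of 0.67 (SE 0.19) missed the threshold (adjusted p = 0.24). After median centring TNS1 was called higher (log2 change 0.70, adjusted p = 0.032), and without single arrays its change ranged from 0.41 to 0.93.

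TLN2, the second talin, was at 149.5 ± 7.78 in the wild-type clone against 113.5 ± 2.12 in the L243P clone (log2 change -0.40, SE 0.10, adjusted p = 0.22). The kindlins, which assist talin, gave 54.0 ± 0 and 69.5 ± 0.707 for FERMT1 (log2 change 0.36, adjusted p = 0.31) and 202.0 ± 9.90 and 216.0 ± 0 for FERMT2 (log2 change 0.10, adjusted p = 0.80). VCL (vinculin, which reinforces the link to actin) was at 338 and 355 in the wild-type clone against 357 and 362 in the L243P clone. Its groups were separated by a small gap only, with a log2 change of 0.05 and a 95% interval from -0.15 to 0.25. ZYX (zyxin, a LIM protein of mature adhesions) had a log2 change of -0.01 with an interval from -0.21 to 0.20.

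In the complex of ILK, PINCH and parvin, none of LIMS1, ILK and PARVA was called, and differences between them were not tested. LIMS1, which encodes a PINCH protein that binds ILK, was at 797.0 ± 45.3 in the wild-type clone against 592.5 ± 33.2 in the L243P clone, without overlap (log2 change -0.43, SE 0.085, adjusted p = 0.12). It was called lower when the dimmer 50% of the rows were left out (adjusted p = 0.049), a setting in which 21 of the 31 genes remained and ITGA4 did not. ILK (a pseudokinase that holds the complex together) was at 698 and 758 in the wild-type clone against 712 and 735 in the L243P clone, interleaved (log2 change -0.01, interval from -0.20 to 0.19). Its sign turned with median centring. PARVA (α-parvin, an actin-binding partner) was at 587.0 ± 7.07 and 595.0 ± 0 (log2 change 0.02, interval from -0.16 to 0.20). RSU1, which binds PINCH and was not in the group, rose by 0.53 on the log2 scale (SE 0.072, adjusted p = 0.046), with means of 522.5 ± 2.12 and 755.5 ± 7.78.

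None of the signalling members passed the test after adjustment. PTK2, which encodes focal adhesion kinase, was at 434 and 418 in the wild-type clone against 359 and 318 in the L243P clone. Both L243P samples were lower, and the log2 change of -0.33 (SE 0.094) was not called (adjusted p = 0.24). PXN (paxillin, a scaffold that binds this kinase and the α4 tail) was at 378 and 369 in the wild-type clone against 337 and 344 in the L243P clone (log2 change -0.13, SE 0.079, adjusted p = 0.62). SRC, the kinase that works with PTK2, was at 109 and 127 in the wild-type clone against 134 and 151 in the L243P clone (log2 change 0.27, SE 0.13, adjusted p = 0.50). Its substrate BCAR1 (p130Cas) was at 206.0 ± 8.49 and 227.0 ± 2.83. For PXN, SRC and BCAR1 the clones did not overlap either, yet their intervals reached past 0.

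**Figure D3:**
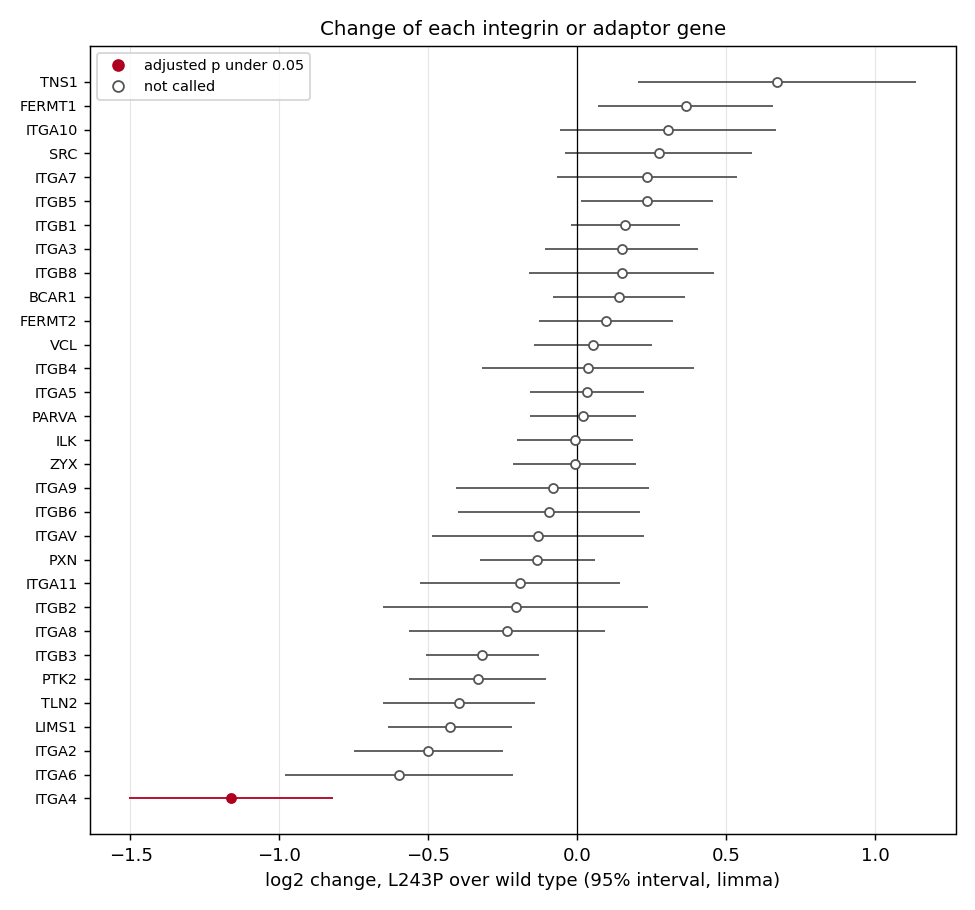
Log2 change of L243P over wild type (x axis) for each of the 31 measured genes, with the 95% interval of the limma fit. ITGA4 (filled) is the gene with an adjusted p under 0.05, and the other intervals above or below 0 belong to genes that did not pass after adjustment.

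Over the 31 genes, 1 was called lower and 0 higher by limma, against 0.967% of all genes called in either direction. At an unadjusted p under 0.05 there were 10, against 13.5% of all genes. Of these, 7 were lower and 3 higher with L243P, against 6.76% and 6.75% of all genes. The clones did not overlap for 23 genes, against 38% of all genes. In 12 of them L243P was higher (17% of all genes) and in 11 lower (20.9% of all genes). Values are rounded to whole numbers, which is coarser in dim rows, so the same counts were made among the brighter 50% of the rows. There, 16 of 21 members did not overlap against 45.9% of genes, and 8 had an unadjusted p under 0.05 against 18%. The median log2 change of the 31 was -0.01, beside -0.02 for all genes. A log2 change under 0.25 in size was found for 20 of the 31, beside 15517 of all 19555 genes. The median size of change was 0.19 for the 31 and 0.12 for all genes. The list was drawn up with results of these data known, so these shares describe it and nothing more.

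**Figure D4:**
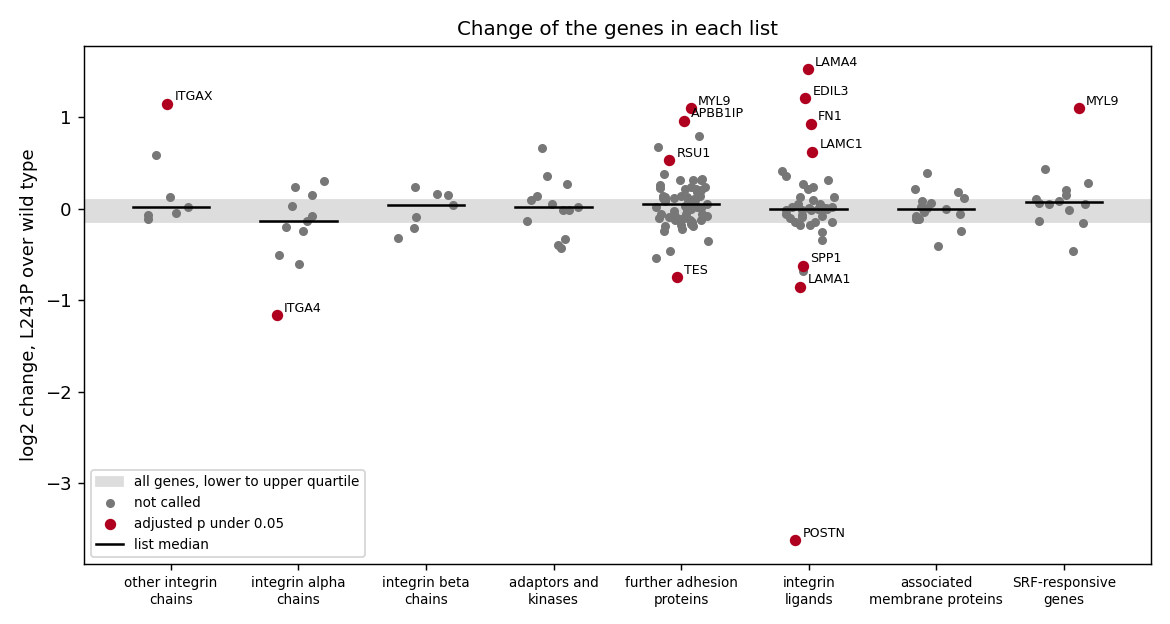
Log2 change of L243P over wild type (y axis) for every measured gene of the integrin and adaptor groups and of the related lists, with called genes in red, list medians as black lines and the range from the lower to the upper quartile of all genes in grey. List medians stay between -0.13 and 0.07, and the calls lie on both sides, with POSTN at -3.62 farthest from 0.

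Extracellular integrin ligands held 7 called genes of 41 measured (against 0.967% of all genes), 4 higher and 3 lower with L243P, at a median log2 change of 0. The list was drawn up with results of these data known, so the count describes it and nothing more. Fibronectin is bound by α5β1, α4β1 and αv integrins. The gene was read by 1 probe set, so the spliced segment bound by α4β1 was not measured apart. FN1 was at 2106 and 2040 in the wild-type clone against 4006 and 3910 in the L243P clone, a 1.91-fold rise (log2 change 0.93, SE 0.069, adjusted p = 0.011). EDIL3, a secreted RGD protein bound by αv integrins, was at 268 and 307 in the wild-type clone against 686 and 641 in the L243P clone, and rose 2.31-fold (log2 change 1.21, SE 0.099, adjusted p = 0.014). Groups did not overlap for either gene. SPP1 (osteopontin, bound by αv integrins and by α4β1) was at 2435 and 2367 in the wild-type clone against 1516 and 1600 in the L243P clone. It fell by 0.62 on the log2 scale (SE 0.072, adjusted p = 0.036). POSTN (periostin, bound by αv integrins) was the gene that fell most in this list, from 257 and 312 to 23 in both L243P samples (log2 change -3.62, SE 0.14, adjusted p = 0.0016). The L243P values of POSTN lay under the median of their arrays, and with a pseudocount of 16 the change was -2.94, or 7.67-fold lower in place of 12.3-fold.

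The laminin chains went both ways. LAMA4 rose from 82.5 ± 14.8 to 236.0 ± 24.0 and LAMC1, the γ1 chain shared by many laminins, from 488.0 ± 9.90 to 754.0 ± 38.2, whereas LAMA1 fell from 165.5 ± 16.3 to 91.5 ± 2.12 (adjusted p = 0.026, 0.044 and 0.049). The call of LAMA1 also ended with a pseudocount of 16. LAMB1 had a log2 change of -0.01. VCAM1, the cell-surface ligand of α4β1, was at 12 or 13 on every array, and VTN (vitronectin) between 27 and 34, both with overlap.

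**Figure D5:**
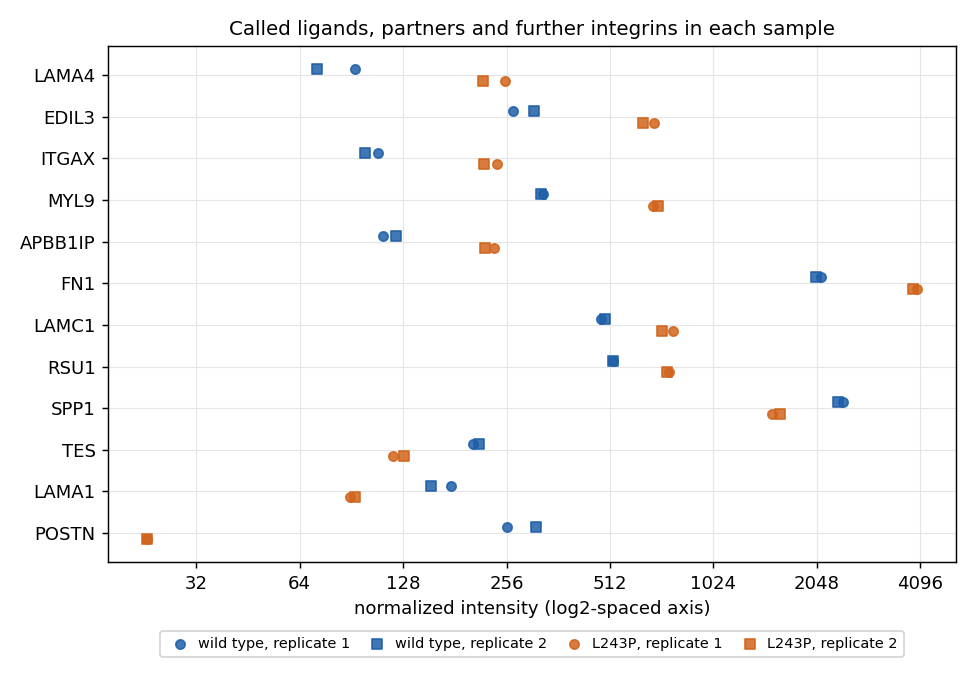
Normalized intensity (x axis, spaced by log2) in each sample for the 12 called genes among integrin ligands, further adhesion proteins and integrin chains outside the group, with wild type in blue and L243P in orange. The clones do not overlap for any of the 12, but these genes were selected by their calls on the same values, so this is no separate support. POSTN lies at 23 in both L243P samples.

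Of 63 further focal adhesion and actin-linking proteins, 3 rose and 1 fell (against 0.967% of all genes called in either direction), at a median log2 change of 0.05. APBB1IP encodes RIAM, which brings talin to integrins. It was at 112 and 122 in the wild-type clone against 235 and 221 in the L243P clone, and rose 1.95-fold (adjusted p = 0.030). MYL9, a regulatory light chain of non-muscle and smooth muscle myosin, was at 327 and 322 in the wild-type clone against 683 and 708 in the L243P clone, and rose 2.14-fold (log2 change 1.10, SE 0.076, adjusted p = 0.0092). RSU1, given above, was the third. TES (testin, a LIM protein that binds zyxin) was at 205 and 213 in the wild-type clone against 120 and 129 in the L243P clone, and fell 1.68-fold (adjusted p = 0.046).

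MYL9 also belonged to a list of 14 measured genes that respond to serum response factor, and was the single gene called there (against 0.967% of all genes). In that list CNN2 (calponin 2) was at 308.5 ± 4.95 and 416.0 ± 1.41 (adjusted p = 0.096), FHL2 at 576.0 ± 35.4 and 418.5 ± 13.4 (adjusted p = 0.10), and the contractile genes ACTA2, TAGLN and CNN1 had log2 changes of 0.15, -0.13 and -0.02. Of 16 integrin-associated membrane proteins 0 were called by limma, with 4 at an unadjusted p under 0.05 (against 13.5% of all genes). They included SLC3A2 (CD98 heavy chain, which binds β1 tails) at 845.0 ± 56.6 and 639.5 ± 34.6 (adjusted p = 0.14), and the tetraspanin CD9 at 834.5 ± 89.8 and 1093.0 ± 67.9 (adjusted p = 0.21). A list of 4 measured fibroblast and smooth muscle markers summed to 660 with wild type in both samples and to 742 and 729 with L243P. Of these markers, 3 had an unadjusted p under 0.05 by limma (against 13.5% of all genes), 1 higher and 2 lower. COL1A1 and ACTA2 were higher with L243P and LUM lower (log2 change 0.42, 0.15 and -0.46), without a call. DCN (decorin), the 1 called, fell from 40 and 36 to 13 and 12 (adjusted p = 0.015). All 4 values lay under the array medians and the L243P values under the lower quartile of their arrays, so no size is given for its change. Its part in the adhesion results was not tested.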

How the data were processed

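RNA of 4 cultures was measured on arrays. The submitters' processing notes name RMA. The authors' deposited description adds background correction, quantile normalization and RMA summaries in Rosetta Resolver. Software versions and genome build: not given in the sources used here. For 29085 probe sets the authors deposited these intensities as whole numbers, not log transformed. The authors' deposited table also holds a signed fold and a pfp (estimated proportion of false positives), both treated as scores, and p-values of the authors' own tests, which were not used. A second deposited table of intensities held the same values in every cell.

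Of 19607 names in the table, 18201 were found in the RefSeq gene table (GRCh38.p14), through current or older symbols. The brightest probe set stood for a gene. PXN was the single member with more than 1. Intensities were log2 transformed without filter and fitted with limma 3.58.1 (R 4.3.3; trend and robust prior), with Benjamini-Hochberg adjustment over 27533 rows and no replicate block. Among the rounded values, 836 rows had no spread within either group. The default prior called 0 genes over the table (2785 at an unadjusted p under 0.05), and the trend fit was taken up with that known. The fit was tested on simulated data, with noise drawn from its own spread estimates in the brighter rows. That test therefore does not cover the spread of dim rows or check the choice of prior. An exact permutation test of 2 against 2 cannot go below p = 0.333. The number of arrays limits the precision.

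Members and lists were chosen with earlier results of these data known. Values in every sample are given for members called, members with a log2 change of at least 0.5 in size and no overlap, and the shared parts ITGB1, ITGAV, ITGA5, VCL, PTK2, ILK, PXN and SRC (the rule also named TLN1, which was not measured), and each called gene of the other lists is named. Alternatives covered the prior, centring, dim rows, a pseudocount of 16, probe sets, the second table, the replicate block and each array left out.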

Additional observations from a re-analysis of the deposited data

How the results depend on the processing

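Each array group held 2 samples, so calls depended on how the spread was modelled. With limma's default prior, 0 genes and 0 members were called (2785 and 9 at an unadjusted p under 0.05), and 0 in each of the other lists. With the replicate block the counts were also 0 (1637 genes and 8 members at an unadjusted p under 0.05), and 0 in each list. The replicate numbers were not shown to pair the samples: the deviations of same-numbered samples correlated at -0.16 over all probe sets. With crossed numbers as a block, an alternative chosen after seeing the data, 0 genes were called (2537 at an unadjusted p under 0.05). Without any single array there were 0 calls for all genes, for the members and for each list, with 2308 to 3487 genes at an unadjusted p under 0.05, where the lone array of a clone is assumed to vary like the other clone. Median centring called 505 genes and 2 members (ITGA4 and TNS1), and removal of the dimmer 50% of rows called 440 genes, 1 member (LIMS1 in place of the filtered ITGA4) and 3 genes responsive to serum response factor in place of 1. For these shifts the cause was not tested. A pseudocount of 16 called 178 genes, and the mean over probe sets 182, each with ITGA4 as the member called. The log2 change of ITGA4 was -0.79 with the pseudocount. The sign of ILK turned with median centring (0.0222), and without single arrays the changes ranged from -0.0674 to 0.0516 for ILK, -0.0321 to 0.0971 for ITGA5 and -0.284 to 0.0208 for ITGAV. The median of the members moved by less than the spread between arrays in each of these settings.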

Other observations

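The authors' own comparison rests on rank products. In the authors' deposited table, 1 of the 31 members, ITGA4, had a pfp at or under the authors' threshold of 0.15, with a signed fold of -2.3 and a pfp of 0.032. The authors' deposited table gave TNS1 a signed fold of 1.6 and a pfp of 0.265, ITGA6 -1.5 and 0.384, ITGA2 -1.4 and 0.563, and LIMS1 -1.3 and 0.702. Of the related genes outside the group, the authors' deposited table gave ITGAX a signed fold of 2.2 with a pfp of 0.0311 and ENAH, an actin regulator at adhesions, 1.7 with a pfp of 0.146. The share of all genes with a pfp at or under 0.15 was not counted. Of the 160 listed genes outside the group, cell type markers such as DCN (pfp 0.0116) included, 10 were at or under 0.15 in the authors' deposited table. Of the ligands, adhesion proteins and integrin chains called here by limma, 4 were above it there, namely TES (pfp 0.189), LAMC1 (0.279), SPP1 (0.305) and RSU1 (0.387). ENAH was at 162 and 211 in the wild-type clone against 345 and 297 in the L243P clone, without overlap, and was not called by limma (log2 change 0.79, SE 0.15, adjusted p = 0.11).

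Among ligands that were not called, TGFBI, a secreted RGD protein induced by TGF-beta, was at 2363 and 3013 in the wild-type clone against 1596 and 1734 in the L243P clone (log2 change -0.68, SE 0.13, adjusted p = 0.10). COL1A1 (collagen I) was at 210 and 209 in the wild-type clone against 275 and 285 in the L243P clone (log2 change 0.42, SE 0.086, adjusted p = 0.12), and COL6A3 (collagen VI) at 1426 and 1392 in the wild-type clone against 1749 and 1666 in the L243P clone (log2 change 0.28, SE 0.071, adjusted p = 0.20).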
